A study of Mus musculus with 25 samples.

Results

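The long noncoding RNAs examined across all 9 conditions were 8 in number, the nuclear RNAs Neat1 and Malat1 and the 6 snoRNA host transcripts Gas5, Snhg1, Snhg3, Snhg5, Snhg6 and Snhg12. They were chosen by gene symbol, and all 8 were found among the 24411 gene symbols of the count files. RNA was sequenced from BMDMs, which are macrophages differentiated from C57BL/6 marrow in M-CSF (25 ng/ml, 4 days), and from RAW264.7, an established mouse macrophage cell line. The 21 BMDM samples were 3 controls, labelled as cultured for 4 h, 3 each treated for 1, 4, 12 and 24 h with 100 U/ml IFN-γ and 100 ng/ml LPS (IFN-γ-primed LPS), and 3 each treated for 12 h with IL-4 or IL-13 at 10 ng/ml. RAW264.7 gave 4 samples, 2 controls cultured for 4 h and 2 treated for 4 h with 100 ng/ml LPS alone, without IFN-γ. The same 3 controls serve every comparison of a BMDM treatment with control, and BMDMs given only LPS were not analysed here. Only the 4 h BMDM treatment matches these controls in labelled time. At 1, 12 and 24 h, IL-4 and IL-13 included, treatment and time in culture cannot be told apart in comparisons with the control. The paper describes IFN-γ priming as pretreatment, and its length before LPS is not given in the sources used here. The controls received no IFN-γ, so effects of IFN-γ before LPS and of LPS cannot be told apart. The study's methods describe the BMDM replicates as biological, made from independent RNA samples. Whether replicates came from separate mice is not given in the sources used here, and the p-values measure the spread between these samples.

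Neat1 is the RNA scaffold of paraspeckles, nuclear bodies that hold back certain proteins and RNAs, and Malat1 is an abundant RNA of nuclear speckles, where splicing factors are stored. Malat1 and the long form of Neat1 end without a poly(A) tail. The snoRNA hosts are spliced transcripts whose introns are processed into small nucleolar RNAs, guides for the chemical modification of ribosomal and spliceosomal RNA. The spliced exons of hosts such as Gas5 are short-lived, are engaged by ribosomes and are removed by nonsense-mediated decay. Gas5 and other hosts belong to the 5′TOP class, whose transcripts begin with a run of pyrimidines and are controlled with the ribosomal proteins. In macrophages, LPS with IFN-γ drives the inflammatory (M1) state and IL-4 or IL-13 the alternative (M2) state. The labels name poly(A) RNA as the molecule, but the protocol describes ribosomal RNA removal and random priming, so transcripts without a tail could be counted.

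In the GENCODE M21 annotation of GRCm38, the build of the files' mm10 genome, Neat1 lies at chr19:5824708-5845478 and Malat1 at chr19:5795690-5802672, both on the minus strand and 22035 bases apart. Gas5 is at chr1:161034422-161038539 and holds 9 small RNA genes in its span. Snhg1 is at chr19:8723475-8726443 and holds 8, and Snhg12 at chr4:132308623-132311024 holds 4. Snhg3 at chr4:132348014-132353686 and Snhg5 at chr9:88521050-88522929 hold 2 each, and Snhg6 at chr1:9941959-9944118 holds 1. Gas5, Snhg1 and Snhg12 are on the plus strand and Snhg3, Snhg5 and Snhg6 on the minus strand. Snhg3 overlaps the protein gene Rcc1 on its own strand, so reads in shared exons could not be assigned to either. Gas5 and Snhg6 overlap Zbtb37 and Mcmdc2 on the opposite strand, and the counts used were those of the sense strand. The opposite strand held at most 0.320% of the counts on both strands for any of the 8 RNAs.

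The start sites of the hosts are shown because a pyrimidine run at the start defines the 5′TOP class, to which Gas5 and other hosts belong. RefSeq (GRCm38.p6) gave 7 promoter windows for 6 of the 8 RNAs, and Neat1 and Snhg6 had no entry. Each line gives 30 bases before and 30 bases from the start, 5′ to 3′ on the strand of the gene, with the longest run of C and T within 20 bases of the start in capitals.
Gas5, first start, chr1:161034571-161034630, plus strand: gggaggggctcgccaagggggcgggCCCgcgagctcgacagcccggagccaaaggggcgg
Gas5, other start, chr1:161035136-161035195, plus strand: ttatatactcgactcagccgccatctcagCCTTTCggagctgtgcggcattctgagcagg
Snhg1, chr19:8723457-8723516, plus strand: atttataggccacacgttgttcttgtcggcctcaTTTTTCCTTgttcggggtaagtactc
Snhg3, chr4:132353657-132353716, minus strand: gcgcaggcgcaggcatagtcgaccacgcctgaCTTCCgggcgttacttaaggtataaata
Snhg5, chr9:88522868-88522927, minus strand: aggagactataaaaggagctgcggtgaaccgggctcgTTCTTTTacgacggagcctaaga
Snhg12, chr4:132308648-132308707, plus strand: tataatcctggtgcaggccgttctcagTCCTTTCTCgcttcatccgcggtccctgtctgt
Malat1, chr19:5802643-5802702, minus strand: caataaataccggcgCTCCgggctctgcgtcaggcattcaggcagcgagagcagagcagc

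The runs of Snhg1 and Snhg12 were 9 bases long, a length reached in 10.7% of all 32851 promoter windows. The run of Snhg5 had 7 bases, a length reached in 24.3% of windows, and that of the other Gas5 start 6 bases, reached in 37.5%. Snhg3 had 5 bases, the median of all windows, Malat1 had 4 and the first Gas5 start had 3. Only the runs of Snhg12 and the other Gas5 start spanned the start. With the start base as 1, the runs of Snhg1, Snhg5 and Snhg3 lay at bases 5 to 13, 8 to 14 and 3 to 7. Those of Malat1 and the first Gas5 start lay before the start. The letters TATA read the same on both strands. They stood between 50 bases before and 30 after the start in 5 of the 7 windows and in 12.0% of all windows. The 2 without them were Malat1 and the first Gas5 start. The E-box letters CACGTG were in none of the 7 windows of 300 bases and in 7.15% of all windows. These matches describe the letters only.

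Sense counts on genes other than the ribosomal precursor Rn45s numbered 1502618 to 2532496 per sample. Levels are given as CPM, these counts scaled to a common library size after TMM normalization, and a gene was called changed at an FDR of at most 0.01 with edgeR's quasi-likelihood test over 10612 genes. The FDR is the adjusted p of the text. Without TMM, dividing by library totals alone moved the median of all genes by -0.58 on the log2 scale at 4 h of IFN-γ-primed LPS and by 0.24 between the RAW264.7 and BMDM controls. All 8 RNAs entered the test, but Snhg5, Snhg6 and Snhg12 passed the filter on low counts only through RAW264.7, and without it 5 were testable. The 8 macrophage markers Adgre1, Csf1r, Cd68, Itgam, Cd14, Lyz2, Fcgr1 and Mertk summed to 18932 to 32910 CPM in BMDMs and 8528 to 10265 CPM in RAW264.7, where Mertk was at 0. Fibroblast markers summed to 24.1 to 92.7 CPM in BMDMs and were all at 0 in RAW264.7, and neutrophil markers summed to 8.68 to 42.7 CPM in BMDMs and at most 1.39 CPM in RAW264.7. Of the 5 T cell markers only Cd4 was detected, at 2.11 to 12.7 CPM in BMDMs and at most 0.347 CPM in RAW264.7. The 5 erythroid markers were at 0 in every sample, B cell markers summed to at most 1.79 CPM and dendritic cell markers to at most 4.35 CPM. The share of Rn45s counts on the opposite strand was 0.0386% to 0.122% in the control, 1, 4 and 12 h BMDMs. It was 0.00603% to 0.0214% in the 24 h, IL-4 and IL-13 BMDMs and 0.0199% to 0.0283% in RAW264.7. The labels name no batch, and a difference between these sets of libraries cannot be told apart from the treatments or cell sources compared across them.

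Neat1 was lower than in the control at 1 h of IFN-γ-primed LPS, reached its lowest BMDM level at 4 h and came back in part by 12 h. Its level in the control BMDMs was 420, 317 and 387 CPM. At 1 h it was 175, 194 and 166 CPM, and at 4 h 59.3, 48.2 and 82.9 CPM. At 12 h it was 162, 108 and 125 CPM, and at 24 h 174, 113 and 102 CPM. Every treated sample lay below every control sample, and every 4 h sample lay below all others of the time course. Against the control, Neat1 was lower by 1.08 ± 0.17 on the log2 scale at 1 h (SE, adjusted p = 4.54e-05, edgeR), a level 2.11-fold lower. At 4 h it fell by 2.57 ± 0.21 (adjusted p = 7.96e-10), 5.92-fold lower. It was still 2.84-fold lower than the control at 12 h (log2 fold change -1.51 ± 0.18, adjusted p = 3.63e-07) and 2.91-fold lower at 24 h (-1.54 ± 0.18, adjusted p = 2.07e-07).

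The steps between time points showed the same course. From 1 to 4 h Neat1 fell by 1.49 ± 0.22 on the log2 scale (adjusted p = 8.70e-06), and from 4 to 12 h it rose by 1.06 ± 0.23 (adjusted p = 7.01e-04). From 12 to 24 h the difference was -0.03, and the samples of these groups overlapped. Of the 8 RNAs, Neat1 alone was called with TMM at 1, 4 and 12 h. Of all genes tested, 24.9%, 48.5% and 44.9% were called at these times. At 24 h Neat1 and Malat1 were called, against 42.8% of all genes. Neat1 alone passed in the step from 1 to 4 h (36.3% of all genes called) and in that from 4 to 12 h (33.4%). None of the 8 was called from 12 to 24 h with edgeR or DESeq2, none had an unadjusted p under 0.05, and 13.6% of all genes were called. With the study's cutoff of 1.5 on the log2 scale added, Neat1 passed at 4, 12 and 24 h, where 21.9%, 17% and 14.7% of all genes did, and not at 1 h, where 7.04% did.

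Malat1, the neighbour of Neat1 on the same strand, had smaller changes. Its level in the control BMDMs was 3859, 3260 and 3662 CPM. It was 3070, 2648 and 2278 CPM at 1 h, 2040, 2274 and 3329 CPM at 4 h, and 3241, 2799 and 1859 CPM at 12 h. At 24 h it was 2657, 1745 and 1490 CPM, all below the control. The 4 h samples overlapped the control, while all 1 and 12 h samples lay below it, the highest 12 h sample at 3241 CPM against 3260 CPM in the lowest control. With TMM only the 24 h difference was called, a fall of 0.87 ± 0.23 on the log2 scale (adjusted p = 3.55e-03). That call was lost without control replicate 1 or 3 or without 24 h replicate 2 or 3, with fold changes of -0.82, -0.85, -0.80 and -0.71 and adjusted p of 0.0141, 0.0115, 0.0194 and 0.0246. It was also lost in the fit of the time course alone (adjusted p = 0.0193). The 24 h samples belong to the set of libraries with the lower Rn45s opposite-strand share. At 4 h the fold change of Malat1 was -0.50 ± 0.23 (adjusted p = 0.0697), with a 95% interval from -0.98 to -0.02. With library totals alone Malat1 was called at 4, 12 and 24 h. The log2 fold changes were then -1.08 ± 0.24, -0.79 ± 0.24 and -1.10 ± 0.24 (edgeR, adjusted p = 7.12e-04, 8.60e-03 and 8.43e-04).

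**Figure D1:**
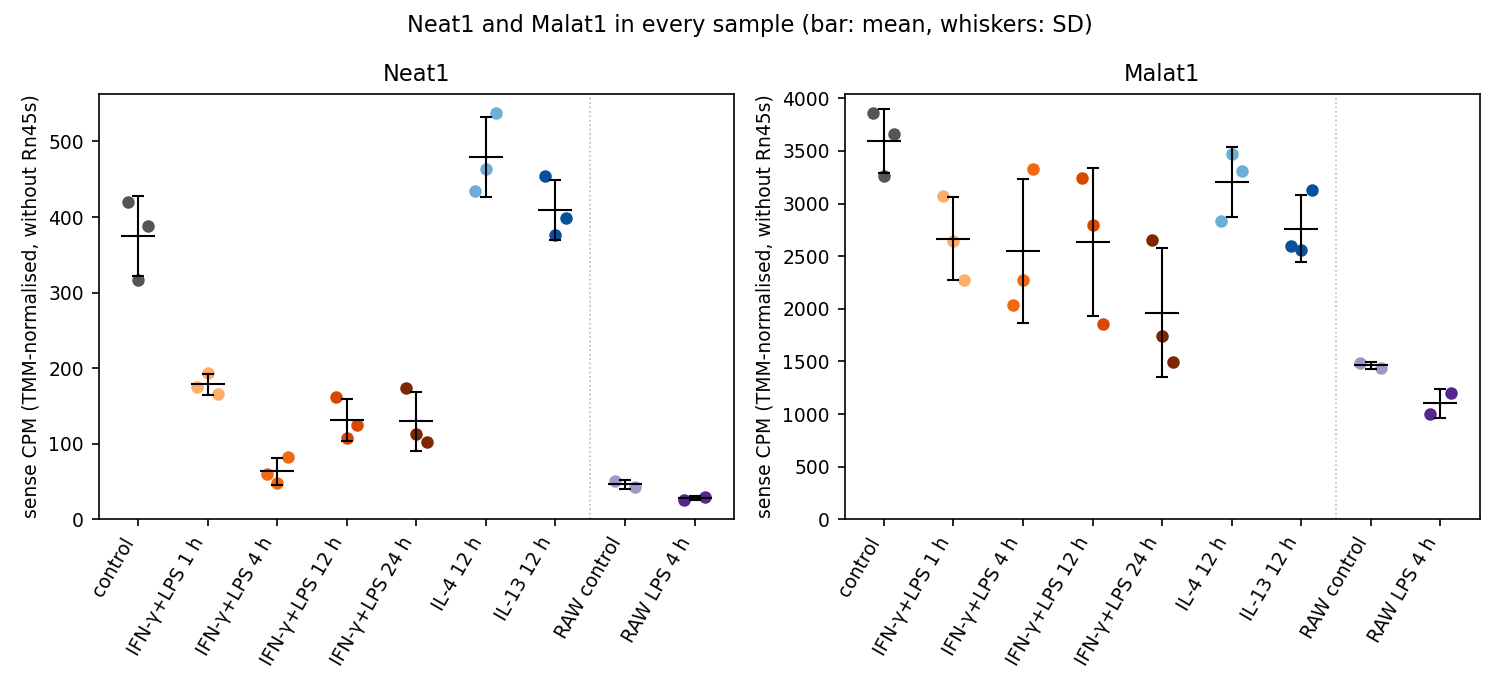
Sense CPM of Neat1 (left) and Malat1 (right) in each of the 25 samples by condition, with points for samples, horizontal bars for means and whiskers for the SD. Neat1 falls from 317 to 420 CPM in the control BMDMs to 48.2 to 82.9 CPM at 4 h, while the Malat1 samples at 4 h overlap the control.

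The ratio of both RNAs within each library does not depend on scaling. Neat1 counts were 10.4% ± 0.605 of Malat1 counts in the control BMDMs (SD, n = 3). They were 6.78% ± 0.926 at 1 h and 2.51% ± 0.396 at 4 h. They then rose to 5.19% ± 1.44 at 12 h and 6.61% ± 0.200 at 24 h. All 12 samples with IFN-γ-primed LPS lay below all 3 controls, and all 4 h samples lay below all others of the time course. In the IL-4 and IL-13 BMDMs the ratio was 15% ± 1.47 and 15% ± 2.37, and all 6 samples lay above all controls. These ratios are given as values, without a test. Per kilobase of annotated exon, the control BMDMs held 515 ± 43.7 CPM of Malat1 and 18.0 ± 2.54 CPM of Neat1, and the counts do not separate the long and short forms of Neat1.

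**Figure D2:**
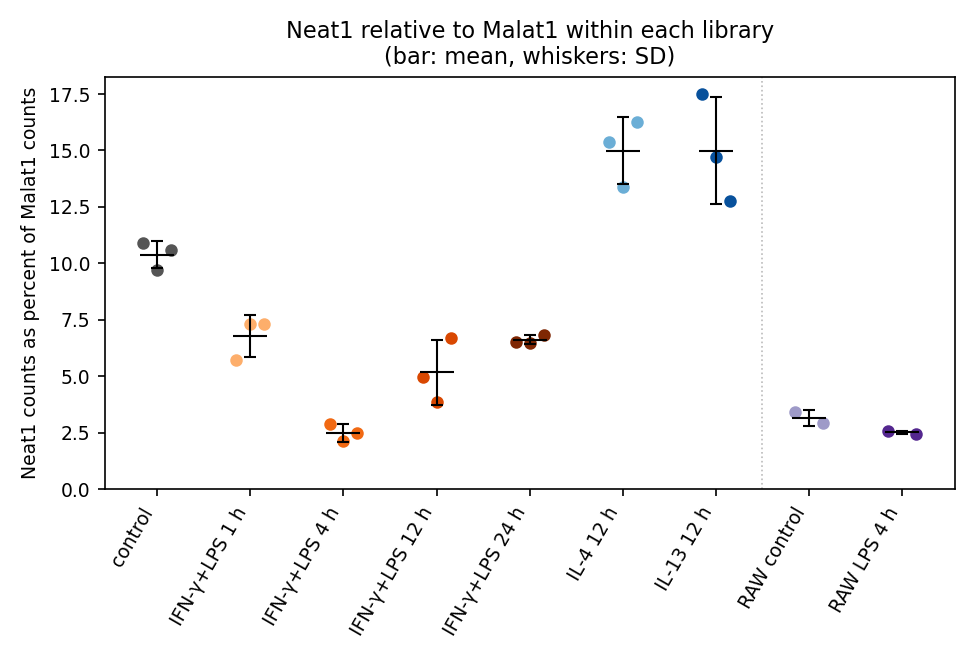
Neat1 counts as a percentage of Malat1 counts in each sample by condition, with points for samples, bars for means and whiskers for the SD. The ratio falls from 10.4% in the control BMDMs to 2.51% at 4 h and stands at 15% with IL-4 and with IL-13.

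Neat1 was not lower with the M2 cytokines. Its level was 435, 464 and 538 CPM with IL-4 and 454, 376 and 399 CPM with IL-13. All IL-4 samples lay above all controls, and the IL-13 samples overlapped them. The fold change with IL-4 was 0.35 ± 0.16 on the log2 scale (adjusted p = 0.209), and with IL-13 it was 0.13. None of the 8 RNAs was called with IL-4, against 6.25% of all genes, or with IL-13, against 8.33%. DESeq2 called none either, and 2 had an unadjusted p under 0.05 in each of these comparisons. In fits restricted to the groups compared, Neat1 was called with IL-4 and Malat1 with IL-13. Between IL-13 and IL-4 none was called by edgeR or DESeq2, none had an unadjusted p under 0.05, and 0.0754% of all genes were called.

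The M1 and M2 states were compared directly at 12 h. The 12 h IFN-γ-primed LPS libraries are in the set with the higher Rn45s opposite-strand share. The IL-4 and IL-13 libraries are in the set with the lower share, so library set and treatment cannot be told apart here. Neat1 was 3.63-fold lower with IFN-γ-primed LPS than with IL-4 (log2 fold change -1.86 ± 0.18, adjusted p = 1.46e-08) and 3.11-fold lower than with IL-13 (-1.64 ± 0.18, adjusted p = 1.09e-07). The groups did not overlap. Snhg1 was also called against IL-4. It stood at 8.66, 7.80 and 9.42 CPM with IFN-γ-primed LPS and at 16.8, 12.8 and 17.3 CPM with IL-4, a difference of -0.85 ± 0.26 on the log2 scale (adjusted p = 4.52e-03). These are 12 to 32 counts per sample, and the call was lost when any of the 3 IFN-γ-primed samples or IL-4 replicate 1 or 3 was left out (adjusted p 0.0108 to 0.0258) with no filter on low counts (adjusted p = 0.0122) and with DESeq2 (adjusted p = 0.0128). Against IL-13, Snhg1 was -0.68 ± 0.26 (adjusted p = 0.0251). In each of these comparisons 41% of all genes were called.

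The 6 snoRNA hosts were counted at low levels in BMDMs. Gas5 lay between 9.01 and 22.9 CPM over the 21 BMDM samples, Snhg1 between 7.48 and 17.3 CPM and Snhg3 between 4.89 and 11.8 CPM. Snhg5 lay between 1.07 and 6.99 CPM, Snhg6 between 0 and 4.89 CPM and Snhg12 between 0 and 3.11 CPM. The summed level of the 6 was 37.7 ± 5.99 CPM in the control BMDMs, 40.0 ± 3.99 CPM at 4 h and 44.2 ± 3.02 CPM at 24 h of IFN-γ-primed LPS. It was 48.7 ± 5.07 CPM with IL-4 and 50.4 ± 1.78 CPM with IL-13, where the IL-13 samples lay above the controls and the IL-4 samples overlapped them. No host was called against the control in any of the 6 BMDM treatments by edgeR with TMM or by DESeq2, and an unadjusted p under 0.05 was found for Snhg1 at 1 h, with IL-4 and with IL-13 and for Snhg5 at 4 h and with IL-13. With library totals alone Snhg3 was called at 4 h, at -1.02 ± 0.35 on the log2 scale (edgeR, adjusted p = 8.06e-03), against -0.44 ± 0.36 with TMM. A missed threshold does not show that the hosts did not change, since Snhg5, Snhg6 and Snhg12 had at most 12 counts in any BMDM sample. Where a host had no count, 3 counts would have been 1.73 CPM (Snhg6 and Snhg12, IL-13 replicate 1) and 2.66 CPM (Snhg12, 4 h replicate 1), limits that cover counting error only.

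Gas5, the best counted host, was at 13.9, 17.9 and 13.9 CPM in the control BMDMs and at 13.3, 11.7 and 19.7 CPM at 4 h. These groups overlapped. Snhg1 was at 9.12, 10.8 and 7.48 CPM in the control and at 12.3, 15.4 and 15.7 CPM at 1 h, where the groups did not overlap but the fold change of 0.66 ± 0.25 missed the threshold (adjusted p = 0.0361). With IL-4 Snhg1 was above all controls at 0.77 ± 0.25 on the log2 scale (adjusted p = 0.0332). Snhg5 was at 1.07, 1.63 and 3.21 CPM in the control and at 6.33, 3.58 and 6.07 CPM with IL-13, a difference of 1.40 ± 0.48 (adjusted p = 0.0395) on 2 to 12 counts per sample. In the order of mean levels, no BMDM group of Gas5 or Snhg1 was separated from the next by a gap between samples. In the order of Neat1, gaps lay below the 24 h, 1 h and control BMDMs and below the RAW264.7 control, while the 4 h BMDMs overlapped the RAW264.7 control, the 12 h BMDMs overlapped the 24 h BMDMs and the IL-13 BMDMs overlapped the control and IL-4 BMDMs.

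RAW264.7 controls had higher levels of the snoRNA hosts than BMDM controls and lower levels of both nuclear RNAs. All 8 RNAs were called between the controls, against 65.6% of all genes tested, 31.9% higher and 33.7% lower in RAW264.7. Snhg5, Snhg6 and Snhg12 entered the test through their RAW264.7 level, so the count of 8 supports nothing about the group. Cell source, culture medium and the Rn45s opposite-strand share differed together between these groups and cannot be told apart. In bulk samples such as these, fewer cells of a type and less RNA per cell cannot be told apart either.

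Gas5 was at 135 and 139 CPM in the RAW264.7 controls, above every BMDM sample, and 8.93-fold higher than in the BMDM controls (log2 fold change 3.16 ± 0.16, adjusted p = 9.06e-29). Snhg1, host of Snord22 among others, was at 60.4 and 61.6 CPM, 6.63-fold higher (2.73 ± 0.20, adjusted p = 8.40e-21). Snhg3, host of Snora73a and Snora73b, was at 23.6 and 24.3 CPM, 2.89-fold higher (1.53 ± 0.24, adjusted p = 7.12e-08). Snhg5, host of Snord50a and Snord50b, was at 19.1 and 20.3 CPM, against 2 to 6 counts (1.07 to 3.21 CPM) in the BMDM controls. In Gas5, Snhg1 and Snhg3 every RAW264.7 sample lay above every BMDM sample, as in 20.3% of all genes tested. The samples of Snhg5 and Snhg12 were separated in the same way, but these hosts entered the test through their RAW264.7 level. Snhg6, host of Snord87, was at 6.59 and 4.71 CPM, against 2 counts in each BMDM control. Snhg12 was at 4.16 and 9.78 CPM, against 1 to 5 counts in the BMDM controls. For Snhg5, Snhg6 and Snhg12 these values are a description, with log2 fold changes of 3.28 ± 0.37, 2.33 ± 0.59 and 1.78 ± 0.51, since the filter kept them for their RAW264.7 level. The value of Snhg12 was 1.05 without RAW264.7 control replicate 2 and 1.33 without BMDM control replicate 3, and that of Snhg6 was 2.07 without RAW264.7 control replicate 1, and each of these fell short of the FDR threshold.

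Neat1 was at 50.7 and 42.0 CPM in the RAW264.7 controls, 8.07-fold lower than in the BMDM controls (log2 fold change -3.01 ± 0.23, adjusted p = 1.21e-10). This overlapped the level of the 4 h BMDMs. Malat1 was at 1487 and 1438 CPM, 2.46-fold lower (-1.30 ± 0.26, adjusted p = 2.64e-04). Neat1 counts were 3.16% ± 0.342 of Malat1 counts (SD, n = 2), below the 10.4% of the BMDM controls in both samples. The summed macrophage, fibroblast and neutrophil markers were also lower in RAW264.7, by the values given above, and their part in these differences was not tested.

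**Figure D3:**
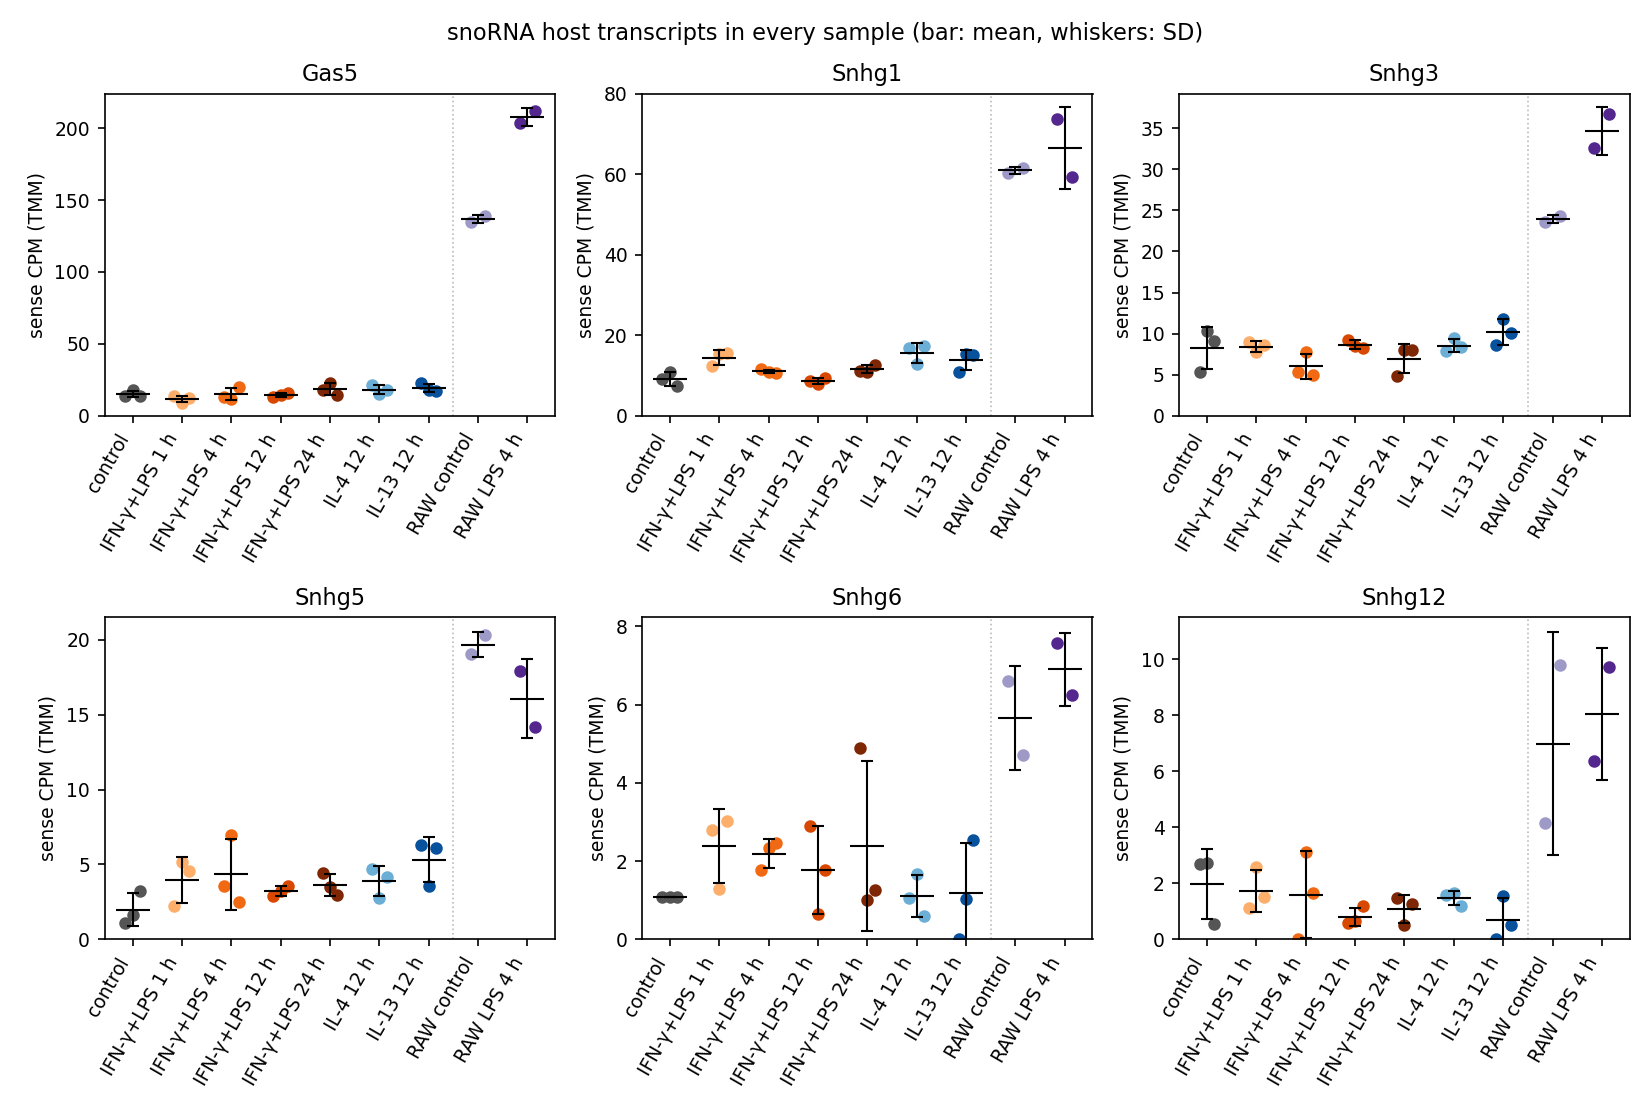
Sense CPM of the 6 snoRNA hosts in each of the 25 samples by condition, with points for samples, bars for means and whiskers for the SD, on a separate axis for each gene. Gas5 lies at 9.01 to 22.9 CPM in BMDMs and at 135 to 212 CPM in RAW264.7, and RAW264.7 exceeds every BMDM sample for Gas5, Snhg1, Snhg3, Snhg5 and Snhg12.

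LPS for 4 h moved 1 of the 8 RNAs in RAW264.7, against 18.5% of all genes. Gas5 rose from 135 and 139 CPM to 203 and 212 CPM, a rise of 0.60 ± 0.12 on the log2 scale (adjusted p = 5.88e-05, edgeR) and 1.52-fold. It did not reach the study's cutoff of 2 on the log2 scale for this cell line, which 3% of all genes passed. Neat1 was at 25.9 and 29.5 CPM with LPS, below both controls, with a fold change of -0.74 ± 0.30 (adjusted p = 0.0741). Snhg3 was at 32.7 and 36.7 CPM, above both controls, with 0.54 ± 0.19 (adjusted p = 0.0312). Malat1 was at 1004 and 1196 CPM, below both controls. In the fit of the RAW264.7 samples alone, Neat1, Malat1 and Snhg3 were called beside Gas5. Neat1 was also called without BMDM 24 h replicate 1, a sample outside the comparison that enters the shared estimate of spread.

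The change of Neat1 at 4 h differed between the cell sources. The RAW264.7 change minus the BMDM change was 1.83 ± 0.37 on the log2 scale (adjusted p = 5.96e-04), with a 95% interval from 1.04 to 2.61. Neat1 was the only one of the 8 called in this test, against 25% of all genes. For Gas5 the difference was 0.64 ± 0.28 (adjusted p = 0.0694) and for Snhg3 0.98 ± 0.41 (adjusted p = 0.0531). For Snhg5 it was -1.43 ± 0.61 (adjusted p = 0.0606). The stimulus differed as well, LPS alone in RAW264.7 and LPS with IFN-γ in BMDMs, so cell source and stimulus cannot be told apart.

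**Figure D4:**
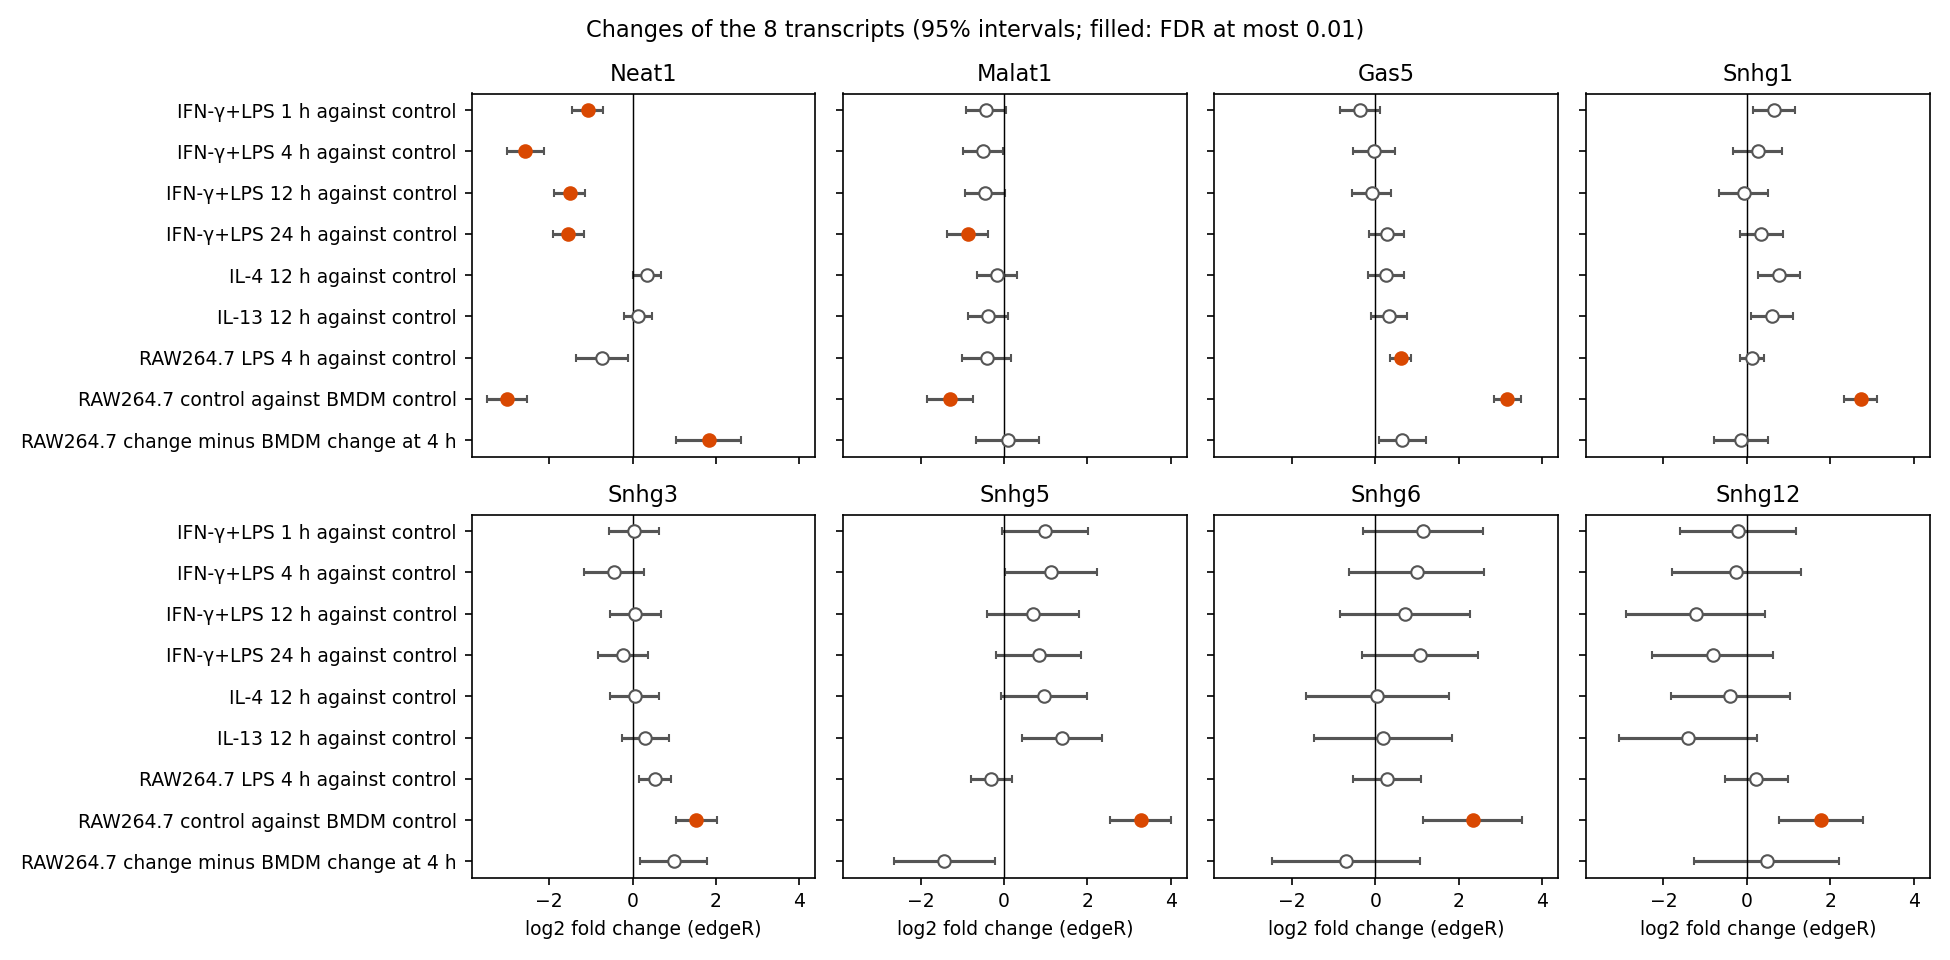
Log2 fold changes of the 8 RNAs in 9 comparisons, with 95% intervals and filled points for an FDR of at most 0.01. Neat1 is called in all 4 times of IFN-γ-primed LPS and falls by 2.57 at 4 h, the hosts are called, among the comparisons shown, only in those with RAW264.7, and the intervals of Snhg6 and Snhg12 are the widest.

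Of the snoRNAs within these hosts, 7 were found by symbol among the counted genes, and the others were not measured under a symbol of their own. Snord47 and Snora61 are shown as an example of each class. Snord47 lies within Gas5 at chr1:161038082-161038158 and Snora61 within Snhg12 at chr4:132310240-132310369, both on the plus strand (GENCODE M21, GRCm38). Capitals mark the C box letters TGATGA and the D box letters CTGA of Snord47 and the ACA near the end of Snora61.
Snord47: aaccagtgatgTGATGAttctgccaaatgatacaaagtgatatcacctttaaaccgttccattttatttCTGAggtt
Snora61: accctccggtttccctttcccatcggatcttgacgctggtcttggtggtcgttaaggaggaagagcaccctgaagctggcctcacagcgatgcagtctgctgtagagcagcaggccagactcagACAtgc
TGATGA in the first 30 bases with CTGA in the last 30 was found in 21% of the 1507 snoRNA transcripts of this annotation, and ACA in the last 10 bases in 47.4%, searched on the strand of the transcript. Among the 7, Snord22 had no TGATGA in its first 30 bases and Snora44 no ACA in its last 10.

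Of the 3 snoRNAs that passed the filter without RAW264.7, namely Snora61, Snora44 and Snord22, all were called higher in the RAW264.7 controls, against 31.9% of all genes. Snord47 had 0 to 2 counts in each BMDM sample, and 49 and 41 counts (17.0 and 14.9 CPM) in the RAW264.7 controls. With LPS it was at 26.3 and 36.4 CPM, a rise of 0.98 ± 0.25 on the log2 scale (edgeR, adjusted p = 1.31e-03), where 18.5% of all genes were called. Its host Gas5 was called as well. Of the 5 snoRNAs tested, only Snord47 was called with LPS. The changes of Snord22, Snora44, Snora61 and Snora16a with LPS were 0.31 ± 0.42, 0.46 ± 0.22, 0.37 ± 0.19 and 0.98 ± 0.31. Snora61 was at 11.3, 5.97 and 9.09 CPM in the BMDM controls and at 48.9 and 49.3 CPM in the RAW264.7 controls (2.47 ± 0.25, adjusted p = 2.89e-13). Snora44 of the same host Snhg12 was at 47.2 and 50.7 CPM (2.69 ± 0.30, adjusted p = 5.39e-10), and Snora16a, which like Snord47 passed the filter only through RAW264.7, was at 7.63 and 11.2 CPM against 2.67 to 5.36 CPM. Snord22 of Snhg1 varied widely among BMDMs, from 31.0 to 267 CPM, and was at 520 and 525 CPM in the RAW264.7 controls (1.74 ± 0.41, adjusted p = 1.10e-03). Snord87 and Snord99 did not pass the filter on low counts. Reads within a host's retained introns cannot be told apart from those of the snoRNA.

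The other genes of these pathways were counted from lists chosen by function. At 4 h of IFN-γ-primed LPS their balance depended on scaling, and the counts with library totals alone are given beside those with TMM. The shares of all genes are those with TMM, so the counts with library totals alone are a description only. Of 12 other snoRNA host genes with counts, 7 were tested. Dancr and Epb4.1l4aos passed the filter only through RAW264.7, and the other 5 were called higher in RAW264.7 controls than in BMDM controls, where 31.9% of all genes were. Snhg4 had a log2 fold change of 2.74 ± 0.31 (adjusted p = 2.47e-12), and Dancr had 0 to 4 counts in the BMDM controls and 15 to 18 in the RAW264.7 controls. At 4 h of IFN-γ-primed LPS, where 48.5% of all genes were called, 1 of the 7 rose, Snhg8 (1.02 ± 0.32), and 1 fell, Snhg20 (-2.43 ± 0.62), while with library totals alone none rose and 1 fell. Of 10 proteins that bind and assemble snoRNAs, 9 were called higher in RAW264.7, against 31.9% of all genes, and 1 of these, Gar1, passed the filter only through RAW264.7. Dkc1, a core protein of the H/ACA class, had a log2 fold change of 3.49 ± 0.16. At 4 h 2 of the 10 rose, Nhp2l1 (1.03 ± 0.15) and Nop10 (0.78 ± 0.19), and with library totals alone 1 rose and 3 fell. Of 11 translation factors of the 5′TOP class, 10 were higher and 1 lower in RAW264.7, against 31.9% and 33.7% of all genes, led by Npm1 (3.08 ± 0.10) and Btf3 (1.51 ± 0.11), and 8 rose and none fell at 4 h, led by Pabpc1 (1.26 ± 0.10) and Btf3 (0.86 ± 0.11). With library totals alone 1 of the 11 rose and 3 fell at 4 h.

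Of 13 paraspeckle proteins, 4 rose and none fell at 4 h of IFN-γ-primed LPS, where 48.5% of all genes were called, with a median of 0.49 against -0.09 over all genes, but with library totals alone 1 rose and 2 fell, with a median of -0.10 against -0.66 over all genes. Nono (1.16 ± 0.11), an RNA-binding protein of these bodies, was among those that rose with TMM. In RAW264.7 controls 11 of the 13 were higher than in BMDM controls, against 31.9% of all genes, and none was lower, with Nudt21 at 2.49 ± 0.17. Of 13 nuclear speckle and SR splicing factors, 5 rose and none fell at 4 h, a share below the 48.5% of all genes called, led by Srsf3 (1.21 ± 0.11) and Srsf4 (0.91 ± 0.19), and with library totals alone 1 rose and 2 fell. In RAW264.7 controls 7 of these were higher and 2 lower, led by Srsf7 (2.28 ± 0.13) and Srsf9 (2.16 ± 0.28). Of 14 tested factors of nonsense-mediated decay, 7 rose and 1 fell at 4 h, a share near the 48.5% of all genes called, with Magohb, a subunit of the exon junction complex, at 2.08 ± 0.39, and with library totals alone 3 rose and 2 fell. With IL-4 and with IL-13 1 of the 14 rose, Smg5 (1.01 ± 0.13 and 1.14 ± 0.13). That share was near the 6.25% and 8.33% of all genes called.

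Genes beside these RNAs had their own courses. Slc3a2, which encodes the heavy chain of amino acid transporters and starts 105 bases from Snhg1 on the opposite strand, rose at 4 h by 1.84 ± 0.09 on the log2 scale (adjusted p = 3.44e-30), where Snhg1 was not called. It was lower in RAW264.7 (-0.78 ± 0.10), where Snhg1 was higher. Frmd8, the protein gene nearest to Neat1, rose at 4 h by 0.94 ± 0.15 (adjusted p = 2.51e-07) while Neat1 fell. Rcc1, a nucleotide exchange factor for Ran that overlaps Snhg3, was higher in RAW264.7 (3.45 ± 0.20). Trnau1ap, 738 bases from Snhg12, was not called (0.14 ± 0.22).

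Likeness of course was measured by Pearson's r over the means of the 9 conditions, among 7976 genes with a mean of at least 10 CPM, as a description of points that share libraries. The genes most like Neat1 were Tmem260 (0.989), Mfsd12 (0.988) and E430025E21Rik (0.987), and 365 genes passed 0.9. Those most like Malat1 were Gpr137b-ps (0.975), 1810026B05Rik (0.974) and Ppp1r16a (0.972). Gas5 was most like Nip7 (0.996), Ahcy (0.994) and Nme2 (0.992), and Snhg1 most like Pebp1 (0.994), Srpk1 (0.991) and Rpl22 (0.990). Snhg3 was most like Cdk8 (0.994), Prr14l (0.990) and Gpr89 (0.985). Snhg5 was most like Polr2d (0.984), Ccdc58 (0.982) and Suclg1 (0.981). Snhg6 was most like Hyou1 (0.992), Nfat5 (0.985) and Lars (0.984), and Snhg12 most like Ppic (0.987), Taf9 (0.983) and Smarcad1 (0.982). Among the 8 RNAs, Gas5 and Snhg1 gave 0.964, Neat1 and Malat1 0.876, and Neat1 and Gas5 -0.713. For the hosts these values rest on the gap between BMDMs and RAW264.7. Neat1 and Malat1 had their lowest means in the RAW264.7 conditions, which enter their values as well.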

How the data were processed

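The submitters' processing notes name CASAVA 1.8.2, Trimmomatic 0.33, STAR 2.5.1 and the build mm10. The authors deposited raw counts per gene symbol, unstranded and per strand, without normalization. The annotation release is not given in the sources used here. Sense-strand counts of all 25 samples were used without Rn45s, which took 20.1% to 39.8% of them. They were fitted in R 4.3.3 with edgeR 4.0.16: filterByExpr by group, TMM, a robust quasi-likelihood fit with 9 group means, and Benjamini-Hochberg adjustment over all 10612 genes in each of 15 comparisons. Each standard error was the absolute fold change (log2) divided by the root of F. Intervals and floors cover counting or residual error only. Named list genes are the 2 with the largest called change in a comparison, and some genes are not reported here. For each of the 8 RNAs, the 3 genes with the most similar course were named. No 2 replicates of a group held identical counts (chi-square per degree of freedom 1.30 to 4.53). This comparison cannot show whether 2 libraries were made from separate RNA. Alternatives used other scalings, filters, DESeq2 1.42.0, unstranded counts, Rn45s kept, a replicate block, fewer groups and samples left out. A fit of BMDM samples only was added after seeing the data. The scripts were tested on simulated data. The RNAs and gene lists were chosen with earlier results of these data known.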

Additional observations from a re-analysis of the deposited data

Results flagged for a closer look

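The change of Neat1 at 4 h differed between cell sources by a test of the difference itself: the RAW264.7 change minus the BMDM change was 1.83 ± 0.37 on the log2 scale (edgeR, adjusted p = 5.96e-04). The course of Neat1 under IFN-γ-primed LPS differed between time points by the same kind of test, with a change of -1.49 ± 0.22 from 1 to 4 h (adjusted p = 8.70e-06) and of 1.06 ± 0.23 from 4 to 12 h (adjusted p = 7.01e-04). Groups of 2 or 3 samples were not examined for single samples far from the others.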

How the results depend on the processing

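Of the 20 pairs of RNA and comparison that were called, 16 kept their call under every alternative that gave a value, the other 4 lost it in 16 of their fits (Malat1 at 24 h, Snhg1 against IL-4, and Snhg6 and Snhg12 between the controls), and none reversed direction. The calls of Snhg5, Snhg6 and Snhg12 between the controls are among the 20, and that of Snhg5 is among the 16. These hosts entered the test through their RAW264.7 level, so a call that held supports nothing for them. The 10 Neat1 calls held in all 25 fits with a sample left out. Scaled by library totals alone, 3 RNAs were called at 4 h, 2 at 12 h, 3 between IFN-γ-primed LPS and IL-4, 3 between IFN-γ-primed LPS and IL-13 and 3 for the difference between cell sources. That scaling moved the share of higher genes among those called at 1, 4, 12 and 24 h from 58.8%, 52.1%, 51.8% and 52.1% to 34.5%, 23.3%, 29.8% and 34.8%. Without a filter, 1 was called with IL-4, 1 between IFN-γ-primed LPS and IL-4 and 2 with LPS in RAW264.7. With at least 10 counts in every sample, 4 could be tested, and 2 were called between IFN-γ-primed LPS and IL-13 and 4 between the controls. DESeq2 called 1 between IFN-γ-primed LPS and IL-4 and 7 between the controls. In fits restricted to the time course, to the control with IL-4 and IL-13, to RAW264.7 or to the groups compared, 1 was called at 24 h, 1 with IL-4, 1 with IL-13, 4 with LPS in RAW264.7 and 7 between the controls. With each sample left out in turn, 1 to 2 were called at 24 h, 1 to 2 between IFN-γ-primed LPS and IL-4, 1 to 2 with LPS in RAW264.7 and 7 to 8 between the controls. The cause was not tested. The share of all genes called is not given for these alternatives, so their counts are a description only.

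Replicate numbers did not pair the samples (mean correlation of deviations 0.00164 over 93 pairs with the same number, 3 of them over 0.1). With the number as a replicate block, Neat1 at 4 h fell by 2.56 on the log2 scale and no count of called RNAs changed. Depth limits the hosts in BMDMs, where Snhg5, Snhg6 and Snhg12 had 0 to 12 counts per sample.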

Other observations

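Another nuclear long noncoding RNA, Kcnq1ot1, the antisense transcript of the imprinted Kcnq1 domain, was singled out after its values were seen at 4 h. It stood at 94.4 to 111 CPM in the 3 control BMDMs, 42.0 to 71.4 CPM at 1 h, 11.7 to 23.0 CPM at 4 h, 25.3 to 67.0 CPM at 12 h and 27.4 to 50.8 CPM at 24 h of IFN-γ-primed LPS. Its fall at 4 h was 2.60 ± 0.31 on the log2 scale (edgeR, adjusted p = 1.99e-07), and it rose by 1.51 ± 0.35 from 4 to 12 h (adjusted p = 1.27e-03). In RAW264.7 it was at 77.9 to 85.0 CPM in the controls and 82.8 to 85.6 CPM with LPS, and the difference between the changes of the cell sources was 2.65 ± 0.40 (adjusted p = 1.66e-05).

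Among the 10 other long noncoding RNAs tested, 1 rose and 4 fell at 4 h, a share near the 48.5% of all genes called with TMM. With library totals alone 1 rose and 7 fell, a description without the share of all genes. Mir155hg, the host of miR-155, had no count in any control, IL-4 or IL-13 BMDM sample and stood at 73.3 to 95.1 CPM at 1 h and 61.1 to 88.6 CPM at 4 h. In RAW264.7 Mir155hg was at 0 to 0.694 CPM in the controls and 7.17 to 11.1 CPM with LPS. Mir17hg, the host of the miR-17 cluster, rose with IL-4 (1.88 ± 0.51, adjusted p = 7.26e-03) and IL-13 (2.01 ± 0.49, adjusted p = 2.10e-03), on 2 to 19 counts per sample, and was higher in the RAW264.7 controls (4.50 ± 0.35). Ftx, a noncoding gene of the X inactivation centre, fell at 4 h (-3.37 ± 0.76, adjusted p = 1.14e-04), from 4 to 18 counts per control sample to 0 to 2 counts.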
